A study of Mus musculus with 32 samples.

Results

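The 6 genes described here are red cell genes, chosen by name and matched by symbol among the 29511 genes counted in this series. They are the adult alpha globins Hba-a1 and Hba-a2, the adult beta globins Hbb-bs and Hbb-bt, the heme enzyme Alas2 and the membrane protein Slc4a1, and all 6 had a row in both the count and the FPKM tables. RNA was sequenced from 32 samples of FVB/N mice whose hosts were either wildtype (WT) or whole-body knockout (KO) for Clic4, a chloride intracellular channel protein. Lungs came from 4 WT and 4 KO control mice without a tumor and from 6 WT and 6 KO mice 14 days after 6DT1 cells were placed in the mammary fat pad, and primary tumors came from 6 WT and 6 KO hosts on the same day. 6DT1 is a mouse mammary tumor line from an MMTV-Myc mouse, and its cells carried Clic4 in both host genotypes, so a tumor from a KO host lacked Clic4 in its host cells only. The mice were virgin females from crosses of heterozygous carriers, and the 14-day lungs are labelled as premetastatic. Lungs were divided into lobes and snap-frozen, as were the tumors, with no statement that blood was cleared from them.

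Hemoglobin is built from alpha and beta globin chains, each holding a heme. Alas2 makes the first, committed step of heme synthesis in the red cell lineage, and Slc4a1 (band 3) exchanges chloride for bicarbonate across the red cell membrane and anchors the membrane skeleton. Mammalian red cells leave the marrow without a nucleus, and the youngest of them, the reticulocytes, still carry globin messenger RNA, so these transcripts in a solid tissue are commonly read as a sign of blood. In bulk tissue, fewer cells of a type and less RNA per cell cannot be told apart.

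The depth was 4446323 to 8318711 counts per sample. Clic4 itself followed the labels in the lungs, where it lay between 55.4 and 74.6 FPKM in the 10 KO samples and between 154.6 and 229.7 FPKM in the 10 WT samples. In tumors, whose 6DT1 cells carry the gene, it lay between 58.9 and 69.0 FPKM in KO hosts and between 74.7 and 82.2 FPKM in WT hosts. FPKM is the number of fragments scaled for transcript length and library size, so it can be set side by side between genes. The study describes the samples as independent animals, and which lung and tumor shared a mouse is not given in the labels.

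The promoters are shown as background on the members, and their part in the levels measured here was not tested. Each sequence comes from the RefSeq promoter window in GRCm38.p6, 5′ to 3′ on the gene's strand, and is limited to the bases of that window outside annotated exons. Capitals mark GATA matches, which are AGATAA or AGATAG or TGATAA or TGATAG on either strand, and CACCC matches on either strand. Matches in bases not printed are counted in the text but not shown.
Hba-a1 (chr11:32283422-32283510, plus strand): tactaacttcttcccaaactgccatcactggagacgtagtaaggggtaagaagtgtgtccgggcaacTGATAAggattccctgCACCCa
Hba-a2 (chr11:32296242-32296488, plus strand): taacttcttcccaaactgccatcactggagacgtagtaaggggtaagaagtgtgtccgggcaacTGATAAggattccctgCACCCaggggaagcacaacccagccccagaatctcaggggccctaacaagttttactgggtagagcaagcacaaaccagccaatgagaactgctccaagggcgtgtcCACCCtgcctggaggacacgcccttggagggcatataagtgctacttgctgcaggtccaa
Hbb-bs (chr7:103828097-103828178, minus strand): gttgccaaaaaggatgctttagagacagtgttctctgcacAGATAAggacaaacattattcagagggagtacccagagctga
Hbb-bt (chr7:103813997-103814173, minus strand): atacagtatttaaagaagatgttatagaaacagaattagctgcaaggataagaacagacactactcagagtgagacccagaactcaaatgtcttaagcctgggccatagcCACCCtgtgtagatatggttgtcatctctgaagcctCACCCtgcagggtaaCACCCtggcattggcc
Alas2 (chrX:150547167-150547374, plus strand): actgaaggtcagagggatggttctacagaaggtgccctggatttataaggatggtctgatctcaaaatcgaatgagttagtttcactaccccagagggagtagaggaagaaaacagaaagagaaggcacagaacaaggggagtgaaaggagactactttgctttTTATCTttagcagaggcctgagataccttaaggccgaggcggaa

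Over the whole 250 bases upstream, a GATA match was present in Hba-a1, Hba-a2, Hbb-bs and Alas2 and absent from Hbb-bt, and a CACCC match was present in all 5 promoters. Among 32851 promoters of the same length, 26.5% held a GATA match, 52.0% a CACCC match and 11.8% both. The upstream sequences of Hba-a1 and Hba-a2 were identical over the 247 bases of overlap at the best offset, whereas those of Hbb-bs and Hbb-bt were identical at 51.0% of 249 positions. The promoter table held no entry for Slc4a1.

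The alpha globins lie on chromosome 11 of GRCm38, Hba-a1 (ENSMUSG00000069919) from 32283511 to 32284465 and Hba-a2 (ENSMUSG00000069917) from 32296489 to 32297298 on the plus strand. The beta globins lie on the minus strand of chromosome 7, Hbb-bs (ENSMUSG00000052305) from 103826534 to 103828096 and Hbb-bt (ENSMUSG00000073940) from 103812524 to 103813996. Alas2 (ENSMUSG00000025270) lies on chromosome X from 150547375 to 150570638, and Slc4a1 (ENSMUSG00000006574) on chromosome 11 from 102348824 to 102366203. The coding sequences of the alpha pair are identical at 425 of 426 bases and those of the beta pair at 440 of 441. Reads that match both copies of a pair are divided between them by an estimate, so the level of a single copy is less certain than that of the pair. The share of such reads was not measured.

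Globin transcripts were among the most abundant in the lung. By mean FPKM over the 20 lungs, Hbb-bs ranked 10 of 29434 genes with 4705 FPKM, Hba-a1 ranked 12 with 3396, Hbb-bt ranked 38 with 1060 and Hba-a2 ranked 127 with 357. Alas2 followed at 83.6 and Slc4a1 at 3.58 FPKM. In the 12 tumors the means were 55.9 for Hbb-bs, 41.7 for Hba-a1, 10.5 for Hbb-bt, 8.01 for Alas2, 5.90 for Hba-a2 and 0.0533 for Slc4a1. Alas2 and Hba-a2 thus stood in the opposite order in the tumors, where their ranges overlapped. This order is uncertain, since Hba-a2 was listed at 0 in 5 of the 12 tumors. The FPKM of Alas2 in tumors also rests on a shorter assigned length (median 672 bases, against 1690 in lungs).

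Together the 6 genes took 0.321 to 1.22% of the counts of a lung, with a median of 0.440%, and 0.00303 to 0.0101% of the counts of a tumor, with a median of 0.00602%. The ranges did not overlap. The highest lung was replicate 6 of the KO lungs at 14 days, at 1.22% (95% Wilson interval 1.21 to 1.22%, which covers counting error only), and the next was replicate 5 of the same group at 0.713%.

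**Figure D1:**
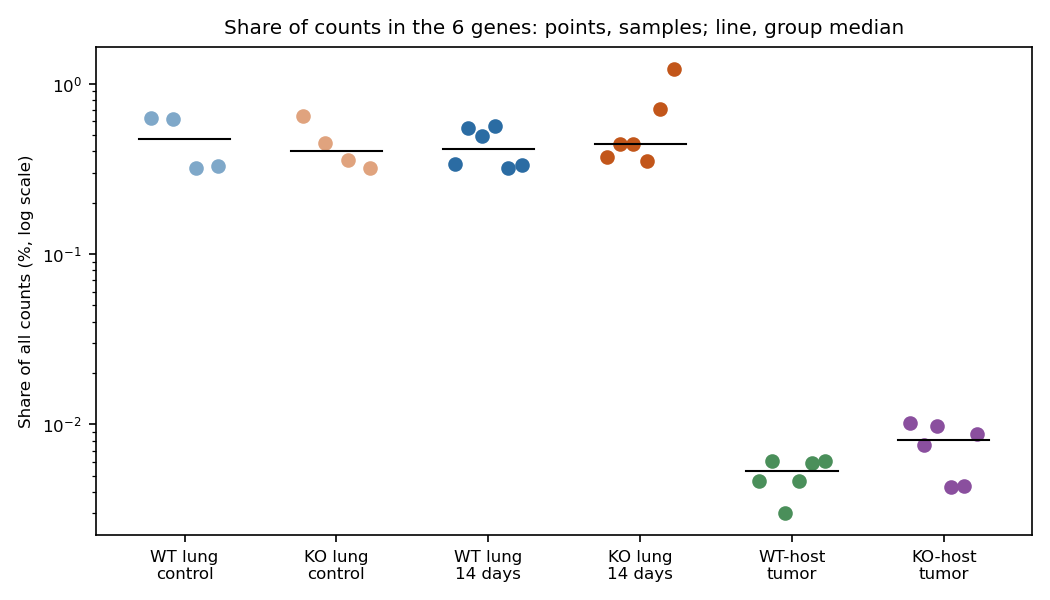
Share of all counts (%, log axis) in the 6 genes, with 1 point per sample and a line at each group's median. The lungs lie between 0.321 and 1.22% and the tumors between 0.00303 and 0.0101%.

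Hbb-bs, the more abundant beta globin, was measured at 3005, 3330, 5670 and 6203 FPKM in the control WT lungs and at 3163, 3541, 4308 and 6225 FPKM in the control KO lungs. At 14 days it ranged from 3044 to 5340 FPKM with a median of 3902 in WT lungs, and from 3307 to 11951 with a median of 4152 in KO lungs. The 4 lung groups overlapped. In tumors it ranged from 24.9 to 60.9 FPKM (median 49.5) in WT hosts and from 31.3 to 93.3 (median 73.6) in KO hosts, and 4 of 6 KO-host tumors lay above every WT-host tumor. The means were 4552 ± 1619 (SD, n = 4) and 4309 ± 1363 (n = 4) in control WT and KO lungs, 4074 ± 1000.4 (n = 6) and 5702 ± 3351 (n = 6) in WT and KO lungs at 14 days, and 46.5 ± 13.6 (n = 6) and 65.3 ± 27.7 (n = 6) in tumors of WT and KO hosts.

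Hba-a1, the more abundant alpha globin, was measured at 2328, 2580, 4175 and 4742 FPKM in control WT lungs and at 2200, 2244, 2935 and 4503 FPKM in control KO lungs. At 14 days it ranged from 1955 to 4123 FPKM (median 3118) in WT lungs and from 2387 to 7743 (median 2909) in KO lungs. In tumors it ranged from 19.5 to 48.1 FPKM (median 35.3) in WT hosts and from 29.2 to 67.3 (median 55.3) in KO hosts, and 4 of 6 KO-host tumors again lay above every WT-host tumor while the ranges overlapped. The tumor means were 33.7 ± 9.47 (SD, n = 6) and 49.7 ± 16.3 FPKM (n = 6).

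The second copies followed at lower levels. Hbb-bt ranged from 597 to 3026 FPKM over all lungs and from 4.33 to 17.8 over all tumors. Hba-a2 ranged from 173.6 to 826 FPKM over all lungs and was listed at 0 in 4 of 6 WT-host tumors and 1 of 6 KO-host tumors, with 26.3 FPKM as its highest tumor value. The part of the division of reads between the alpha copies in these zeros was not tested.

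Alas2 was measured at 45.3, 58.9, 85.0 and 100.2 FPKM in control WT lungs and at 56.0, 63.9, 79.3 and 108.8 in control KO lungs. At 14 days it ranged from 61.6 to 87.6 FPKM (median 79.4) in WT lungs and from 57.6 to 211.9 (median 81.3) in KO lungs. In tumors it ranged from 3.74 to 10.1 FPKM (median 8.32) in WT hosts and from 4.25 to 14.4 (median 8.14) in KO hosts, so the tumor groups overlapped. The tumor means were 7.62 ± 2.19 (SD, n = 6) and 8.39 ± 3.48 FPKM (n = 6).

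Slc4a1 was the scarcest member. It was measured at 0.90, 3.58, 5.6 and 6.14 FPKM in control WT lungs and at 1.48, 1.77, 2.90 and 4.22 in control KO lungs, and at 14 days it ranged from 1.32 to 5.03 in WT and from 1.69 to 12.03 in KO lungs. Its counts in a lung were 17 to 319. In tumors its FPKM was listed at 0 in 6 of 12 samples and the highest value was 0.25.

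**Figure D2:**
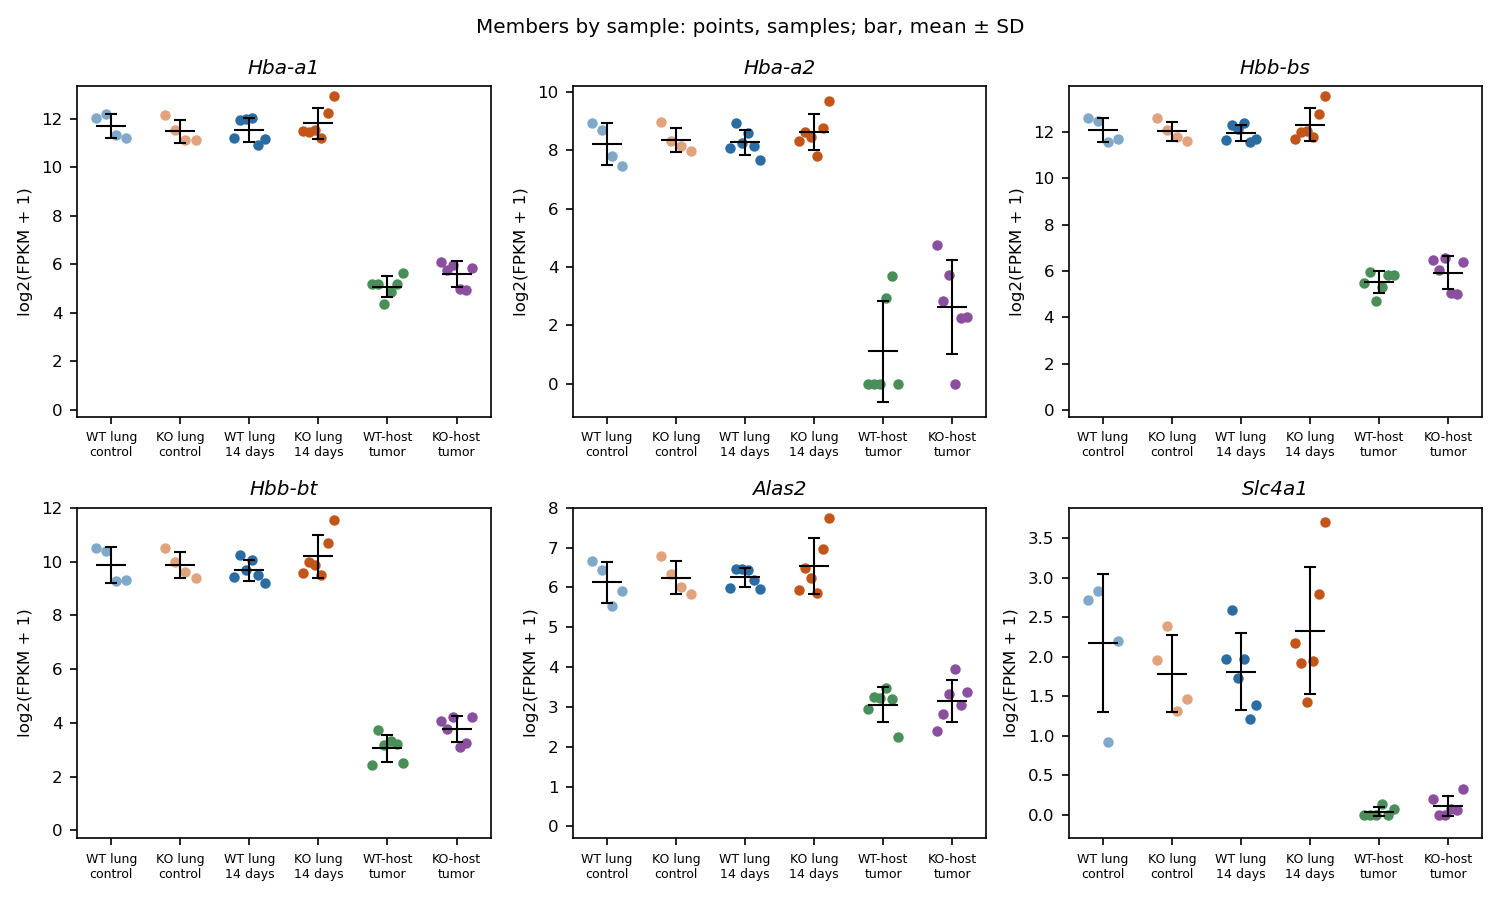
Level of each gene as log2(FPKM + 1), with 1 point per sample and bars for the mean ± SD of each group (4 control lungs, 6 lungs at 14 days or 6 tumors per genotype). Lungs stand far above tumors for every gene, and replicate 6 of the KO lungs at 14 days is the highest lung for all 6.

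Next, KO and WT samples were compared with edgeR's quasi-likelihood test, adjusted by Benjamini-Hochberg over all genes tested. A gene was called in tumors at an adjusted p under 0.05 and over 2-fold, and in lungs at an adjusted p under 0.25 and over 1.5-fold, except that the interaction in lungs had no fold limit. No member was called in tumors, where 1.06% of 13830 genes were, and Hba-a2 and Slc4a1 had too few counts to be tested. The log2 differences (KO host minus WT host) of the tested members were 0.81 ± 0.27 (SE, adjusted p = 0.160) for Hbb-bt, 0.60 ± 0.24 (adjusted p = 0.243) for Hba-a1, 0.56 ± 0.28 (adjusted p = 0.363) for Hbb-bs and 0.21 ± 0.21 (adjusted p = 0.697) for Alas2. The 95% intervals, not adjusted for the number of genes, ran from 0.23 to 1.39 for Hbb-bt, from 0.09 to 1.11 for Hba-a1, from -0.04 to 1.16 for Hbb-bs and from -0.24 to 0.66 for Alas2.

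In lungs at 14 days, no member was called between KO and WT, against 0.212% of 16029 genes. The log2 differences ran from 0.35 (Hba-a1) to 0.82 (Slc4a1), with adjusted p from 0.588 to 0.802 (edgeR). For Hbb-bs the difference was 0.48 with a 95% interval from -0.08 to 1.05, and for Hbb-bt it was 0.68 with an unadjusted interval from 0.02 to 1.33 and an adjusted p of 0.588 (edgeR). Without replicate 6 of the KO lungs, the highest library for all 6 genes, the difference was 0.12 ± 0.22 for Hbb-bs, 0.26 ± 0.26 for Hbb-bt, 0.05 ± 0.22 for Alas2 and 0.22 ± 0.44 for Slc4a1. In control lungs no member was called either, against 0.231% of genes, and the differences lay between -0.74 (Slc4a1) and 0.05 (Hba-a2).

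The response to the tumor was tested within each genotype. In KO lungs the members differed by 0.35 (Hba-a2) to 1.09 (Slc4a1) on the log2 scale between 14 days and control, and none was called (adjusted p from 0.615 to 0.790, edgeR), against 0.262% of genes. Without replicate 6 of the 14-day KO lungs these values became 0.04 (Alas2) to 0.49 (Slc4a1). In WT lungs the values lay between -0.46 (Slc4a1) and 0.03 (Alas2) and none was called, against 0.574% of genes. The interaction of genotype and tumor ranged from 0.37 (Hba-a2) to 1.56 (Slc4a1), with adjusted p from 0.603 to 0.855, and no member was called, against 0.0499% of genes. The interval for Slc4a1 ran from -0.06 to 3.17. Without replicate 6 of the 14-day KO lungs the interaction was 0.01 for Alas2, 0.07 for Hba-a2, 0.19 for Hbb-bs, 0.27 for Hba-a1, 0.33 for Hbb-bt and 0.96 for Slc4a1. These lung comparisons share groups, so their values for the members are not independent of each other.

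**Figure D3:**
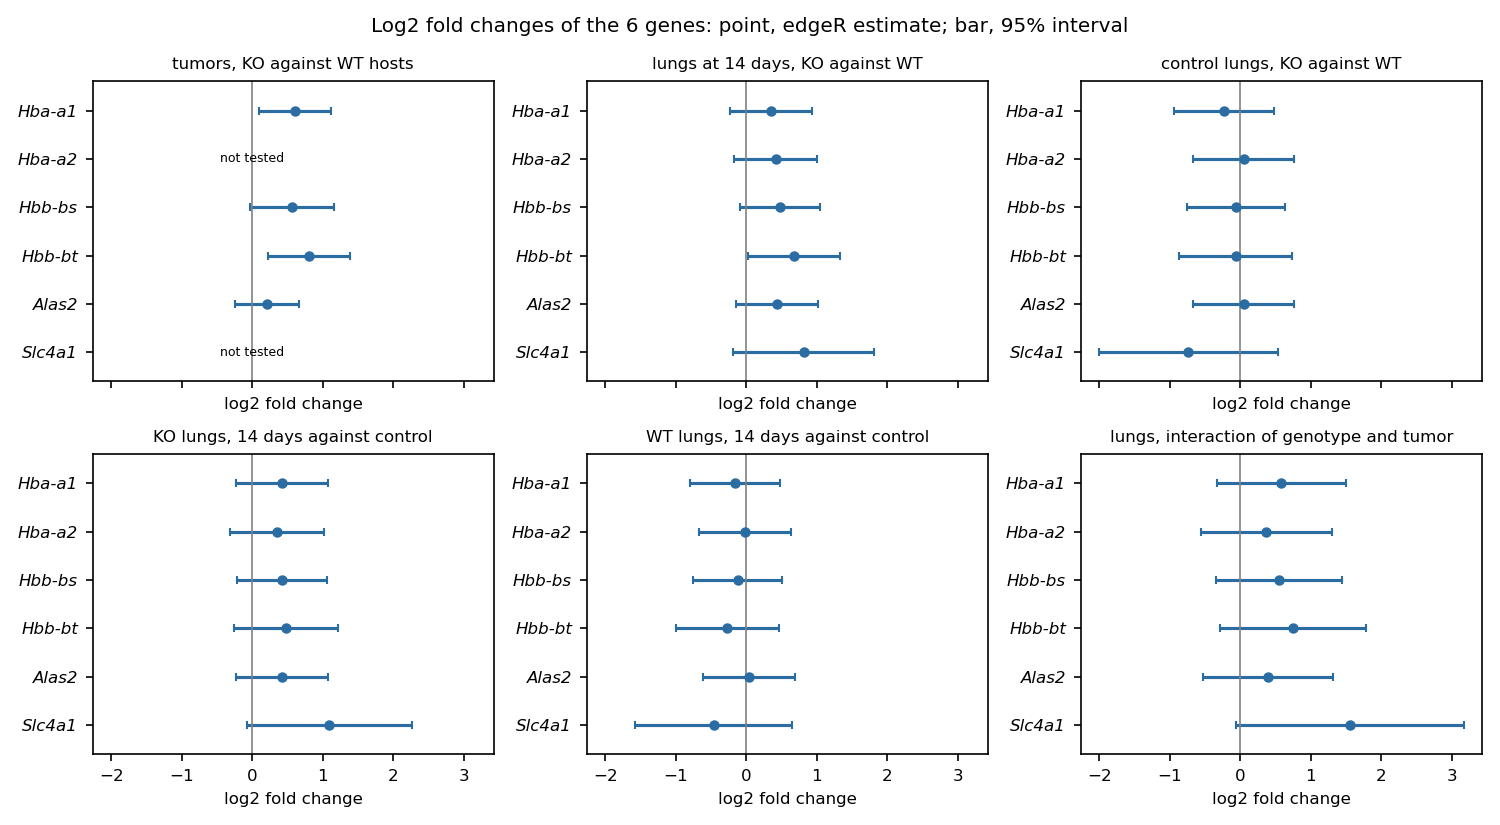
Log2 fold change of each gene in the 6 comparisons between host genotypes and between times, with points for edgeR's estimates and bars for unadjusted 95% intervals. Every interval includes 0 in control lungs, in WT and KO lungs between times and for the interaction. Hba-a2 and Slc4a1 were not tested in tumors.

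Hbb-bs, Hba-a1, Hbb-bt and Alas2 were lower in the tumor than in the lung of the same genotype at 14 days. A gene was called there at an adjusted p under 0.05 and over 2-fold. In WT hosts 22.8% of 16825 genes were called lower and 16.4% higher, and in KO hosts 21.7% lower and 16.2% higher. Hba-a2 and Slc4a1 entered this test through their lung counts alone, so they are given as counts, which were 368 to 1759 in a lung and 0 to 43 in a tumor for Hba-a2, and 17 to 319 and 0 to 7 for Slc4a1. In WT hosts the log2 difference (tumor minus lung) was -6.40 ± 0.36 for Hbb-bs (adjusted p = 1.20e-16, edgeR), an 84.3-fold lower level, -6.44 ± 0.35 for Hba-a1 and -6.66 ± 0.41 for Hbb-bt. For Alas2 it was -4.68 ± 0.34 (adjusted p = 6.85e-14, edgeR), a 25.5-fold lower level. In KO hosts the values were -6.33 ± 0.36 for Hbb-bs, -6.21 ± 0.34 for Hba-a1, -6.55 ± 0.39 for Hbb-bt and -4.91 ± 0.33 for Alas2. Over the alternatives the Alas2 value ran from -4.78 to -3.19 in WT hosts and from -5.01 to -3.39 in KO hosts, with the smallest differences on FPKM. The 95% interval of Alas2 in WT hosts, from -5.37 to -3.98, did not overlap that of Hbb-bs, from -7.14 to -5.66, and the difference between the genes was not tested. Nor was the difference between host genotypes. Other cell types moved with this comparison. In WT hosts 7 of 9 platelet, 8 of 9 neutrophil, 10 of 10 endothelial, 8 of 8 lung epithelial and 8 of 8 cardiac muscle genes tested were called lower in tumors, and 5 of 8 mammary epithelial genes were called higher and 3 lower. Many of these genes entered through the lungs as well, since 2 platelet, 6 neutrophil, 9 endothelial, 2 lung epithelial and 1 cardiac muscle gene had enough counts to be tested among tumors. Their part in the members' values was not tested.

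The proportions among the members varied to different degrees. Over the 20 lungs, Hba-a1 was 63.4 to 89.8% of Hbb-bs in FPKM and Hbb-bt was 17.9 to 25.3%, although each gene itself varied about 4-fold or more (3.96-fold for Hba-a1, 3.98-fold for Hbb-bs and 5.07-fold for Hbb-bt). In tumors Hba-a1 was 57.6 to 93.3% and Hbb-bt 8.32 to 31.9% of Hbb-bs. Slc4a1 relative to Hbb-bs varied 3.62-fold and Hba-a2 relative to Hba-a1 varied 1.93-fold over the lungs. Alas2 was 1.5 to 2.38% of Hbb-bs in FPKM in lungs and 4.84 to 44.4% in tumors. In counts, which do not use transcript length, it was 4.96 to 6.92% in lungs and 7.05 to 38.4% in tumors. The ranges did not overlap on either scale. Counts of Alas2 in a tumor were 11 to 41, so the tumor ratios are imprecise.

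**Figure D4:**
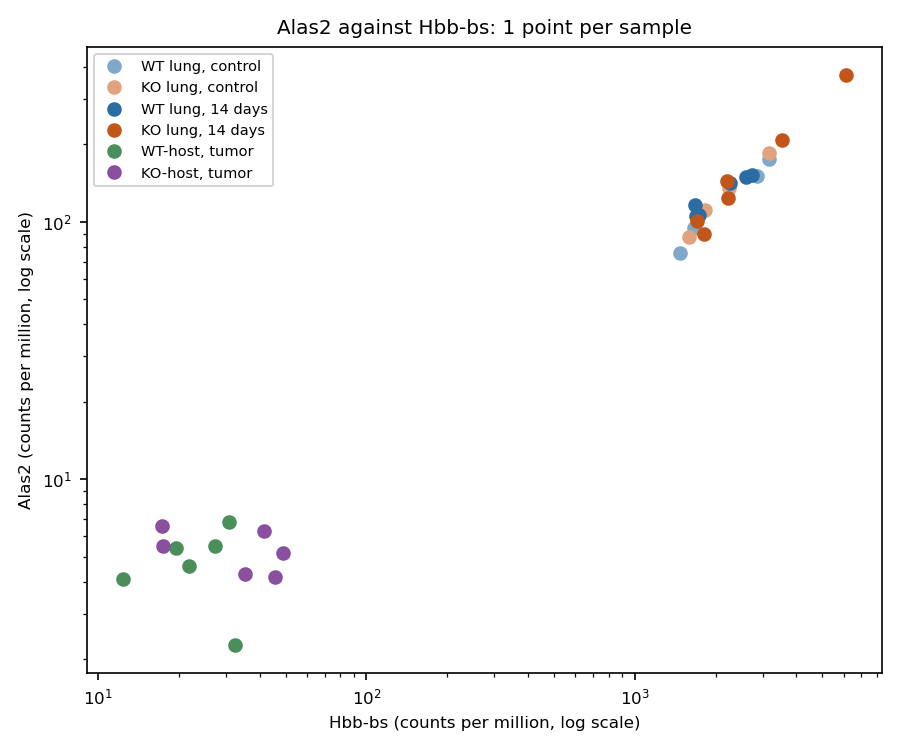
Alas2 against Hbb-bs in CPM (counts scaled to library size) on log axes, with 1 point per sample coloured by group. The lungs fall along 1 line (Alas2 counts 4.96 to 6.92% of Hbb-bs counts) and the 12 tumors lie above its extension at 7.05 to 38.4%.

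The effective length assigned to Alas2 also differed between the tissues. This length follows from a gene's counts, the library size and its FPKM, and for Alas2 it was 1558 to 1776 bases in lungs and 460 to 984 bases in tumors. The annotation (GENCODE M21) lists for Alas2 2 protein-coding transcripts of 2037 and 1892 bases, a retained intron of 485 bases and a processed transcript of 569 bases. For Hba-a1 the length was 489 to 496 bases in lungs and 495 to 504 in tumors, and for Hbb-bs the median was 513 in lungs and 516 in tumors. Slc4a1 had a median of 4335 bases in lungs, with 1929 bases in replicate 4 of the control WT lungs, 2239 in replicate 4 of the 14-day KO lungs and 2671 in replicate 2 of the control KO lungs. The part of intron-retaining or short transcripts in the Alas2 counts of tumors was not tested, since the files hold sums per gene.

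**Figure D5:**
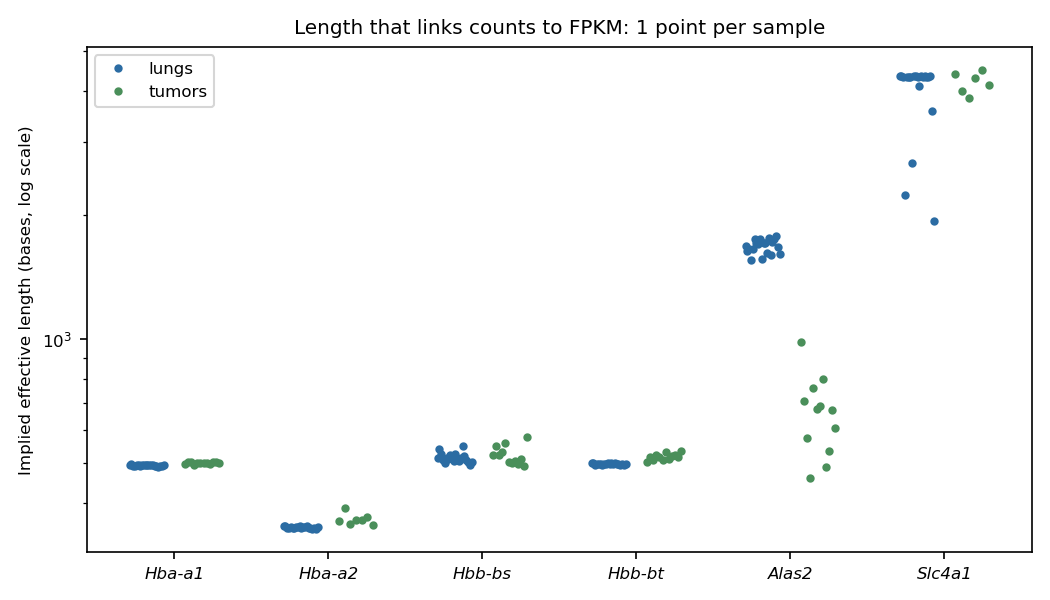
Effective length implied by counts and FPKM (bases, log axis), with 1 point per sample in which the gene was above 0. Alas2 lies at 1558 to 1776 bases in lungs and 460 to 984 bases in tumors, while the globins lie at similar lengths in both tissues.

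The spread between replicates was larger for the members than for most genes. The within-group SD of log2 CPM (counts scaled to library size) over the 20 lungs was 0.53 for Hbb-bs, 0.54 for Hba-a1, 0.54 for Alas2, 0.56 for Hba-a2, 0.61 for Hbb-bt and 0.97 for Slc4a1, against a median of 0.21 over 16029 genes. These values exceeded those of 93.4 to 99.04% of genes. In tumors the SD was 0.61 for Hbb-bs, 0.50 for Hba-a1, 0.50 for Hbb-bt and 0.37 for Alas2, against a median of 0.22.

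Within groups, the members moved together across lungs. Over the 15 pairs of members, Pearson's r of the deviations from the group means was 0.84 to 0.98 across 20 lungs (Spearman's rho 0.80 to 0.98), and 0.78 to 0.97 without the 2 lungs farthest from the median. Across 12 tumors the 6 pairs of tested members ranged from -0.42 (Hba-a1 with Alas2) to 0.97 (Hba-a1 with Hbb-bs). These are descriptions over libraries that share depth and scaling, and the near-identical copies share reads.

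Among the genes most like Hbb-bs across the 20 lungs, other than the members, were Fech (r = 0.98), which inserts iron into the heme ring, and Mkrn1 (0.97), a ubiquitin ligase. They were followed by Fam46c (0.96), Fam220a (0.95) and Bpgm (0.92), which makes the 2,3-bisphosphoglycerate that lowers the oxygen affinity of hemoglobin. The mitochondrial iron importer Slc25a37 (0.89), March2 (0.88) and the carbonic anhydrase Car2 (0.85) came next. The rest of their lists did not share these values. Apart from Fech, r of the heme synthesis genes ran from -0.37 (Alas1) to 0.21 (Alad), and apart from Slc25a37 that of the iron genes ran from -0.29 (Slc25a38) to 0.18 (Abcb10). The erythroid regulators ran from -0.27 (Tal1) to 0.10 (Zfpm1). Of 16028 genes compared, 20 had r above 0.8, and 5 of those were members. Over the 12 tumors r with Hbb-bs was -0.38 for Fech, -0.38 for Mkrn1, -0.37 for Slc25a37, -0.0020 for Bpgm, 0.05 for Fam46c, 0.33 for March2, 0.37 for Car2 and 0.49 for Fam220a.

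Genes of red cell precursors were uneven. Of 8 erythroid regulators 5 had enough counts to be tested in lungs, with Lmo2 at 94 to 215 and Tal1 at 63 to 158 counts in a lung. Klf1, the erythroid transcription factor, had at most 1 count in a lung and 2 in a tumor. Gata1 had 1 to 7 counts in a lung and 0 to 5 in a tumor. The other genes of heme synthesis were counted separately. None of the 8 was called between host genotypes or between times in lungs, with a median log2 difference of -0.02 between KO and WT lungs at 14 days, against a median of 0.00 over all genes. Alas1, the form of the first enzyme used outside the red cell lineage, was lower in tumors than in lungs of WT hosts (log2 difference -3.37 ± 0.12, adjusted p = 1.10e-21, edgeR).

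The list counts that follow stand against 22.8% of genes lower and 16.4% higher in tumors of WT hosts, and 21.7% and 16.2% in KO hosts, and list genes could also enter through the lungs, since 5 red cell membrane genes, 2 erythroid regulators and 11 reticulocyte genes had enough counts to be tested among tumors. Of 14 genes of the red cell membrane and skeleton, 9 were tested between tumor and lung, and 5 were lower and 2 higher in tumors of WT hosts, while 6 were lower and 2 higher in those of KO hosts. Gypc, glycophorin C, was higher with a log2 difference of 1.16 ± 0.10 in KO hosts. None of the 8 genes of iron uptake and handling was called. In each genotype 7 of them had an adjusted p under 0.05 (edgeR) but did not pass the 2-fold limit. Of 15 genes of reticulocyte maturation 12 were tested, and 3 were lower and 1 higher in WT hosts and 5 lower and none higher in KO hosts. Of 10 genes that clear free globin and heme 9 were tested, and 2 were higher and 2 lower in tumors of each genotype. The higher ones were Hmox1, the heme oxygenase, at 2.41 ± 0.16 in both genotypes, and Cd163, the hemoglobin-haptoglobin receptor of macrophages, at 3.41 ± 0.23 and 3.66 ± 0.25. The lower ones were Slc48a1, a heme transporter, at -1.02 ± 0.10 in WT and -1.003 ± 0.10 in KO hosts, Hp, haptoglobin, at -1.21 ± 0.16 in WT hosts and Slc40a1, ferroportin, at -1.37 ± 0.18 in KO hosts. Slc48a1 lay near the fold limit, and its call was lost in either genotype with some single library left out.

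Within lungs, few genes of these lists passed the test. Between 14 days and control, 0.212% of genes were called higher in KO lungs and 0.331% in WT lungs. In KO lungs, 14 days against control, Slc40a1, the iron exporter, rose by 0.92 ± 0.20 (adjusted p = 0.119, edgeR) and Zfpm1, the GATA1 cofactor, by 0.83 ± 0.20 (adjusted p = 0.161, edgeR). Markers of other blood cells moved in the same comparison. Of 9 neutrophil genes tested, 2 were called higher in KO lungs (Csf3r by 1.42 and Cxcr2 by 1.02) and 4 in WT lungs (S100a8 by 2.02, S100a9 by 2.05, Cxcr2 by 1.34 and Mmp8 by 1.67), all on the log2 scale. Of 9 platelet genes tested, 1 was called higher in KO lungs (Itga2b, by 0.82) and none in WT lungs. The calls of Slc40a1, Zfpm1, Itga2b and these neutrophil genes were all lost with limma on log2(FPKM + 1) and on log2(FPKM + 0.1), and each was also lost with some single library left out. On log2(FPKM + 1), Zfpm1 differed by 0.15 (adjusted p = 0.949, limma) and S100a8 by 1.76 (adjusted p = 0.464, limma). Summed over 10 neutrophil genes, the level was 129.4 to 214.1 FPKM in control KO lungs, 85.5 to 848 in 14-day KO lungs, 84.3 to 172.9 in control WT lungs and 187.2 to 795 in 14-day WT lungs. Summed over the 6 red cell genes it was 6345 to 12793, 6955 to 23769, 6477 to 12430 and 6077 to 10998 FPKM in the same order. Between KO and WT lungs at 14 days, 1 of 8 cardiac muscle genes was called, Myh6 at -0.66 ± 0.10 (adjusted p = 0.0031, edgeR), and without replicate 5 of the WT lungs it was -0.57, under the fold limit. The correlation of the neutrophil genes with Hbb-bs over lungs ran from -0.42 to 0.34, and that of the platelet genes from 0.08 to 0.26. Their part in the members' values was not tested.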

How the data were processed

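The authors aligned stranded, paired-end mRNA reads to mm10 (GRCm38) with STAR and estimated levels with RSEM, per the labels and the study's methods. They deposited expected counts per Ensembl gene as whole numbers without normalization, and FPKM per gene symbol, scaled by RSEM for length and depth. All columns were mapped to samples by their labels. Counts were tested with edgeR 4.0.16 (R 4.3.3), TMM normalization, filterByExpr and the quasi-likelihood test, with 1 mean per group in a fit of 20 lungs, 12 tumors or all 32 samples. Standard errors were derived from each log2 estimate and its F statistic. Replicate spread used log2 CPM with a prior count of 2. Promoter and transcript positions came from RefSeq and GENCODE M21. The alternatives were DESeq2 1.42.0, RLE factors, an unfiltered table, a minimum of 10 counts throughout, a replicate block, other denominators, summed paralogs, limma 3.58.1 on log2(FPKM + 1) and log2(FPKM + 0.1), fewer groups and each sample left out. The members and gene lists were chosen with earlier results of these data known. Named from the other lists are genes past the limits, at most the 4 with the smallest p per list, beside markers of red cell precursors chosen after their values were seen. The p-values measure the spread between these samples. Of 8 further globin-related genes listed, 2 were in the tables, with a summed level of 0 to 4.39 FPKM in lungs and 0 in tumors, and the others were not analysed here. Some genes that the naming rule selects are not reported here. The tools were tested on simulated data.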

Additional observations from a re-analysis of the deposited data

Results flagged for a closer look

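Among 42 sets of a gene or summed share in 1 group tested for an outlying sample, 1 was past the limit, where chance gives about 1 in 20. It was Hba-a2 in the 14-day KO lungs, with 826.07 FPKM in replicate 6 and 436.6 FPKM in the next sample. The same library was the highest lung for the other 5 genes, which stayed within the limit.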

How the results depend on the processing

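No member value that could be computed changed its side of the threshold, over 465 values from alternatives and 552 with a sample left out. With at least 10 counts in every sample Hba-a2 and Slc4a1 were not tested between tumor and lung. Their fitted folds depend on tumors at 0 counts and are not given. Among named genes that are no members, 35 values from alternatives and 56 with a sample left out fell below the limits. Among the member values, direction turned in 5 of the 465 and 27 of the 552, all in control lungs between genotypes or in WT lungs between times. There, the replicate block gave 0.0221 for Hba-a2 and -0.0418 for Alas2 in WT lungs, limma on log2(FPKM + 1) gave 0.0596 and with 0.1 gave 0.0601 for Hba-a2, and summed paralogs gave -0.21 for Hba-a2 in control lungs. With samples left out, control lungs ranged from -0.19 to 0.31 (Hba-a2), -0.18 to 0.26 (Alas2), -0.29 to 0.12 (Hbb-bs) and -0.32 to 0.14 (Hbb-bt), and WT lungs from -0.23 to 0.25 (Hba-a2), -0.14 to 0.25 (Alas2), -0.29 to 0.0650 (Hbb-bs) and -0.32 to 0.0464 (Hba-a1).

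No pair of groups had every same-number correlation over 0.1, so the numbers were not taken as pairs. For KO lungs and tumors at 14 days the correlations were 0.0365 to 0.160 and 4 of 6 samples matched their own number best, and a shared mouse is not given in the labels. With the replicate block the genes called were 129 in KO lungs between times, 152 in WT lungs and 1 for the interaction. The genes called moved from 146 in tumors to 80 with limma on log2(FPKM + 1) and 91 with 0.1. For lungs at 14 days 34 became 19 with limma and 18 with only the compared groups. For control lungs 37 became 7 without a filter, 9 with DESeq2, 8 and 15 with limma and 246 with only the compared groups. For KO lungs 42 became 2 and 7 with limma. For WT lungs 92 became 58 without a filter and 0 and 5 with limma. For the interaction 8 became 178 with DESeq2 and 0 and 0 with limma. For tumor against lung, at least 10 counts in every sample gave 2974 in WT and 2807 in KO hosts, as fewer genes were tested. Leaving out samples gave 22 to 52 genes for 14-day lungs, 2 to 60 for KO lungs, 11 to 176 for WT lungs, 2 to 76 for control lungs and 1 to 127 for the interaction. The cause was not tested.

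On log2(FPKM + 1), the spread became 0.683 for Slc4a1 in lungs and 0.483 for Alas2 in tumors, and r of Hba-a1 with Hbb-bs in tumors 0.948. Depth limits Hba-a2, Slc4a1 and Alas2 in tumors.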
